A study of Homo sapiens with 4 samples.

Results

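Siglecs and inhibitory receptors of myeloid cells were followed through 4 RNA libraries of the human leukemia lines K562 and THP-1. The 10 genes were CD33, SIGLEC6, SIGLEC7, SIGLEC9, SIGLEC10, LILRB1, LILRB2, LILRB4, LAIR1 and SIRPA. They were taken from the 20348 genes of the deposited table as the rows whose Ensembl identifier maps to these symbols, and all 10 were found. The members were chosen by their CPM and their ratios of periplocin to DMSO in these same 4 libraries, so those values describe the libraries and carry no test. K562 is an established line from chronic myeloid leukemia with erythroid features, and THP-1 is an established line from acute monocytic leukemia. Each line was kept for 72 h either in DMSO, the solvent control, or in 100 nM periplocin, a cardiac glycoside of Cortex periplocae. No genetic change was introduced in either line for these libraries, and 1 culture was sequenced per condition, so no spread between replicates can be given. DMSO as the control comes from the library names and the methods, since the titles say only blank.

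Siglecs are cell surface lectins that bind sialic acid on glycans, and most of those related to CD33 carry tyrosine motifs (ITIMs) in the cytoplasmic tail. When these motifs are phosphorylated by Src family kinases they recruit the phosphatases SHP-1 and SHP-2, encoded by PTPN6 and PTPN11, which dampen activating signals. LILRB receptors, LAIR1 and SIRPA signal through the same kind of motif but recognize proteins, among them HLA class I, collagen and CD47. Several of these receptors are known on acute myeloid leukemia cells, and CD33 is the target of an antibody-drug conjugate used in that disease.

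Total counts were between 16381149 and 20622694 per library, and mitochondrial genes took between 2.07% and 5.62% of them, with the lowest share in K562 periplocin. The labelled lines were checked against their markers. All 10 erythroid and K562 markers were lower in THP-1 DMSO than in K562 DMSO, and all 10 monocytic and THP-1 markers were higher. Defining B and T cell markers MS4A1 and CD2 had 0 counts in every library. Some markers of other lineages were present, KRT18 with 6466 and 4205 counts and EPCAM with 743 and 737 in K562, and NCAM1 with 3134 and 2428 in THP-1. MPO, a granule enzyme of myeloid precursors on the THP-1 list, was low in THP-1 at 43 counts in DMSO and 14 in periplocin. With bulk RNA, fewer cells expressing a gene and less RNA per cell cannot be told apart.

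Levels are given as CPM, the count of a gene per 1000000 counts of its library, after TMM scaling of the 4 libraries. A ratio is the CPM in periplocin over that in DMSO on the log2 scale, with an exact 95% interval that covers counting error only. A gene was called higher or lower when it differed by at least 2-fold and its interval did not include 0, and it was read only with at least 10 counts in 1 library of the pair. In THP-1 all 10 genes could be read. SIGLEC9, with 3 and 28 counts, was read only through periplocin, so it had to be higher there and could be called only higher. SIGLEC7, with 12 and 8 counts, was read only through DMSO and could be called only lower. Any gene with 10 counts in only 1 library of a pair could be called in 1 direction only, and such genes are pointed out where they are named as called. In K562 only CD33 and SIGLEC6 could be read. The other 8 had 7 counts or fewer in both K562 libraries, and 4 of the 10 were at 0 in each of them.

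**Figure D1:**
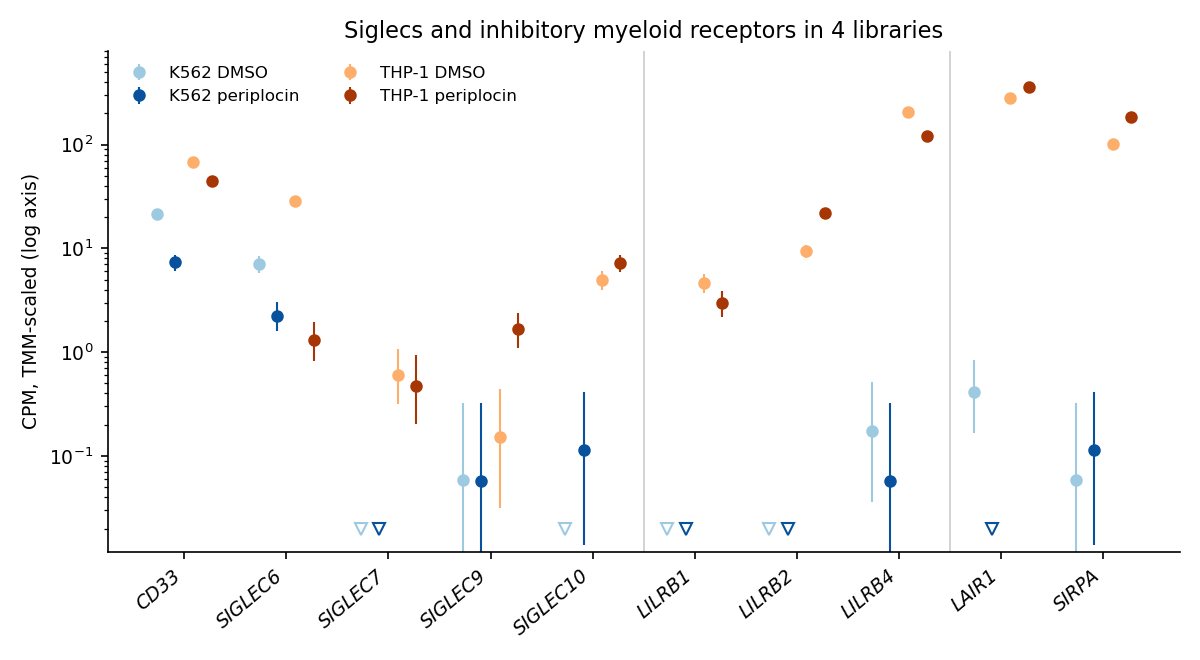
CPM of the 10 genes in the 4 libraries on a log axis, with 95% counting intervals as bars and open triangles for genes at 0 counts, 1 library per point. LAIR1, LILRB4 and SIRPA stand at 101 to 359 CPM in THP-1 and at 7 counts or fewer in K562, whereas CD33 and SIGLEC6 are present in both lines.

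In K562 only 2 of the 10 genes could be read, and these 2 were called lower in periplocin and 0 higher. Of the 12736 genes read in that line, 12.3% were called lower and 10.1% higher. In THP-1, where all 10 could be read, 2 were called higher (SIGLEC9 and LILRB2), beside 9.19% of 13367 genes. There 1 was called lower (SIGLEC6), beside 11.7%. Because these contrasts were used to draw up the list, nothing is read from the counts. The median log2 ratio of the 10 genes in THP-1 was 0.00, with 5 genes above and 5 below an equal level, and the median of all genes read was -0.04. Nearest to the 2-fold line were LILRB2, just inside it at 2.30-fold, and SIRPA, just outside it at 1.84-fold.

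CD33 (ENSG00000105383) encodes Siglec-3, the sialic acid lectin that marks cells of the myeloid lineage. It lies at chr19:51225064-51243860 on the plus strand of GRCh38. It had 362 counts in K562 with DMSO and 127 with periplocin, and in THP-1 it had 1352 with DMSO and 760 with periplocin. In CPM these are 21.2 and 7.31 for K562, and 68.4 and 44.9 for THP-1. Both periplocin libraries were below their DMSO library. The log2 ratio was -1.54 (-1.84 to -1.24) in K562, which is 2.90-fold lower, and -0.61 (-0.74 to -0.48) in THP-1, which is 1.52-fold lower and was not called. The K562 and THP-1 ratios differed by 0.93 on the log2 scale, with a counting interval of 0.61 to 1.25, and without replicates this difference was not tested.

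SIGLEC6 (ENSG00000105492) encodes a Siglec known from placenta and mast cells, and it lies at chr19:51519525-51531856 on the minus strand. K562 held 120 counts with DMSO and 39 with periplocin (7.03 and 2.24 CPM), and THP-1 held 559 and 22 (28.3 and 1.30 CPM). The THP-1 DMSO library was the highest of the 4 and the THP-1 periplocin library the lowest. Its log2 ratio was -1.65 (-2.21 to -1.12) in K562, 3.13-fold lower, and -4.44 (-5.13 to -3.83) in THP-1, 21.8-fold lower. The THP-1 ratio was below that of K562 by a further 6.94-fold, a log2 difference of -2.80 (-3.60 to -1.99) that was likewise not tested.

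The ratio of CD33 to SIGLEC6 kept within counting error between the K562 libraries and did not between those of THP-1. CD33 had 3.02 counts for each count of SIGLEC6 in K562 with DMSO (2.45 to 3.74) and 3.26 with periplocin (2.26 to 4.79). In THP-1 the ratio was 2.42 with DMSO (2.19 to 2.67) and 34.5 with periplocin (22.6 to 55.5). These ratios lie within a library and do not depend on scaling. Beside the lower Siglecs in K562, 9 of the 10 erythroid markers were called higher in periplocin, beside 10.1% of all genes, and their summed level went from 2612 to 9235 CPM. In THP-1 the summed erythroid markers were at 268 and 259 CPM, of which TFRC, the transferrin receptor of dividing cells, made up 257 and 251. HBG2 was called lower there, from 24 to 0 counts, the only direction open to it. Whether the erythroid difference had a part in the CD33 and SIGLEC6 values was not tested.

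Since CD33 and SIGLEC6 were both called lower in K562, the 250 bases before their RefSeq starts (GRCh38.p14) were searched for short cores of myeloid factors. GAGGAA or its reverse complement TTCCTC, a core of PU.1 sites, was found at 2 places in each window, and the 30-base stretches around them are printed on the gene's strand with the core in capitals. They lie at chr19:51224970-51224999 and chr19:51225050-51225079 on the plus strand for CD33, and at chr19:51531735-51531764 and chr19:51531686-51531715 on the minus strand for SIGLEC6. In GENCODE 29 the SIGLEC6 stretches are within the 5′ UTR of transcripts that start farther upstream, as are 16 bases of the CD33 stretch nearest the start.
CD33, 90 bases before the start: gagcatgtgtgggtctgaggTTCCTCttcc
CD33, 10 bases before the start: agtccttcccctccactcccTTCCTCtttt
SIGLEC6, 74 bases before the start: gagggcttgtggcttcgcagTTCCTCttct
SIGLEC6, 25 bases before the start: cgctcctccccagccacccgTTCCTCcccg
The same letters on either strand were in 23.6% of all 35116 promoter windows of that length, and in 8 of the 15 windows of these receptors, from 6 of the 9 genes with an entry. Windows of 1 gene can overlap, and those of SIGLEC9 hold the core at the same place, so the 15 are not independent. The share per gene was not computed for all genes. A RUNX core, TGTGGT or ACCACA, was in 11.0% of all windows and in 1 of the 15, that of LAIR1. No entry was held for SIRPA. Aligned over 250 bases, the CD33 and SIGLEC6 windows were 60.3% identical, the highest value among the windows held for the pair. A match is a description of letters and no binding was measured.

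SIGLEC7, SIGLEC9 and SIGLEC10 had 2 counts or fewer in each K562 library, and their values rest on THP-1. SIGLEC9 (ENSG00000129450, chr19:51124908-51136651, plus strand) encodes an inhibitory Siglec of neutrophils and monocytes. It had 1 count in each K562 library, and in THP-1 it had 3 with DMSO and 28 with periplocin, or 0.152 and 1.65 CPM in THP-1. The THP-1 periplocin library was thus the only one with more than 3 counts, and the ratio of 10.9-fold has a counting interval of 3.37 to 56.0.

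SIGLEC10 (ENSG00000142512, chr19:51410021-51417803, minus strand) encodes a receptor for CD24 and CD52. Its counts were 0 and 2 in K562 DMSO and periplocin, and 97 and 121 in THP-1. The THP-1 level was 4.91 CPM in DMSO and 7.15 in periplocin, a log2 ratio of 0.54 (0.15 to 0.94) that was not called. SIGLEC7 (ENSG00000168995, chr19:51142299-51153526, plus strand), an inhibitory Siglec best known from natural killer cells, had 0 counts in both K562 libraries and 12 and 8 in THP-1. Its log2 ratio of -0.36 had an interval from -1.86 to 1.05, and a difference was not detectable at this depth. SIGLEC6 and SIGLEC7 each share part of their exons with an annotated antisense gene, 16.5% of the exon bases for SIGLEC6 and 22.7% for SIGLEC7. LILRB1 (7.09%) and SIRPA (4.10%) do so as well. SIGLEC10 shares 16.2% of its exon bases with an antisense gene and 6.44% with another. LILRB4 shares 13.0% of its exon bases with a pseudogene on its own strand. Whether counting used strand is not stated, so reads from these genes may be included.

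The LILRB receptors were at or near 0 in K562 and split in THP-1. LILRB4 (ENSG00000186818, chr19:54643889-54670359, plus strand), an inhibitory receptor of monocytic cells for which APOE is a known ligand, had 3 and 1 counts in K562 and 4063 and 2039 in THP-1. At 206 CPM in THP-1 DMSO and 121 in periplocin, its log2 ratio was -0.77 (-0.85 to -0.69), 1.71-fold lower and short of the 2-fold line. LILRB1 (ENSG00000104972, chr19:54617158-54637528, plus strand), a receptor for HLA class I, had 0 counts in both K562 libraries and 91 and 50 in THP-1. Its log2 ratio was -0.64 (-1.17 to -0.13), the same sign as LILRB4.

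LILRB2 (ENSG00000131042, chr19:54273821-54281184, minus strand) also recognizes HLA class I. It had 0 counts in both K562 libraries, and THP-1 held 186 with DMSO and 367 with periplocin, or 9.41 and 21.7 CPM. The level was thus higher in periplocin, with a log2 ratio of 1.20 (0.95 to 1.47), opposite in sign to LILRB1 and LILRB4. LILRB2 counts were 2.04 times those of LILRB1 in THP-1 DMSO (1.58 to 2.66) and 7.34 times in periplocin (5.45 to 10.1). LILRB4 counts were 21.8 times those of LILRB2 in DMSO (18.9 to 25.4) and 5.56 times in periplocin (4.97 to 6.23).

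LILRB1 and LILRB2 are near copies, which bears on both their counts and their starts. In THP-1 DMSO the deposited expected counts were 90.64 for LILRB1 and 186.36 for LILRB2, neither whole on its own, and their sum was the whole number 277. In THP-1 periplocin both were whole. How the counting divided reads that match both genes is uncertain. RefSeq promoter windows of both are shown because the genes had opposite signs in THP-1. Of the windows held for each gene, the pair with the highest identity was taken. These 250-base windows, so chosen, are 90.5% identical, matching at 228 of 252 aligned columns. Printed are the 176 bases of each that no GENCODE 29 UTR covers, at chr19:54630234-54630409 on the plus strand for LILRB1 and chr19:54281185-54281360 on the minus strand for LILRB2 (GRCh38.p14). The LILRB1 stretch lies inside the annotated span of its gene, which begins at chr19:54617158. Capitals mark the 21 bases of each stretch that the alignment does not match to the other gene.
LILRB1: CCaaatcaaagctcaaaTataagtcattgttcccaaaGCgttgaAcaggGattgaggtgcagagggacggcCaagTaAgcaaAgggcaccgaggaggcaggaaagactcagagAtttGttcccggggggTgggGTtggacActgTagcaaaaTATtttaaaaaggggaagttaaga
LILRB2: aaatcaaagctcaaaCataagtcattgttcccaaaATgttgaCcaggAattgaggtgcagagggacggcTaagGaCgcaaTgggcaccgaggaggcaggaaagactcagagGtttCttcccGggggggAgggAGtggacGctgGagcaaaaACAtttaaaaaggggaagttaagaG
Over the printed stretches 155 of 178 aligned columns were identical. Neither full window held the PU.1 or the RUNX core letters, which says only that these letters are not in it.

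Outside the Siglec and LILRB families stood LAIR1 and SIRPA, and both were higher in THP-1 periplocin by less than 2-fold. LAIR1 (ENSG00000167613, chr19:54351384-54370558, minus strand), the collagen receptor, had 7 counts in K562 with DMSO and 0 with periplocin, and 5517 and 6073 in THP-1. Its THP-1 level went from 279 to 359 CPM, a log2 ratio of 0.36 (0.31 to 0.42). In K562 it was 2.38-fold lower in periplocin when 0 is set to 3 counts, and the counting interval of the log2 ratio reached up to -0.55. Its 7 counts are too few for a call under the rule.

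SIRPA (ENSG00000198053, chr20:1894167-1940592, plus strand) encodes the receptor for CD47, the signal that restrains engulfment by macrophages. It had 1 and 2 counts in K562 and 1989 and 3132 in THP-1, where the level went from 101 to 185 CPM with a log2 ratio of 0.88 (0.80 to 0.96). SIRPA counts were 0.490 times those of LILRB4 in THP-1 DMSO (0.464 to 0.517) and 1.54 times in periplocin (1.45 to 1.62), so the order of the pair turned. LAIR1 counts went from 1.36 (1.30 to 1.41) to 2.98 (2.83 to 3.13) times those of LILRB4. Expected counts of LAIR1 and its soluble relative LAIR2 summed to whole numbers, 5532 in THP-1 DMSO and 6086 in periplocin, with 15.16 and 13.1 of them given to LAIR2. Those of SIRPA and SIRPB1, its activating relative, were not whole, nor was their sum, so their division of reads is uncertain.

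**Figure D2:**
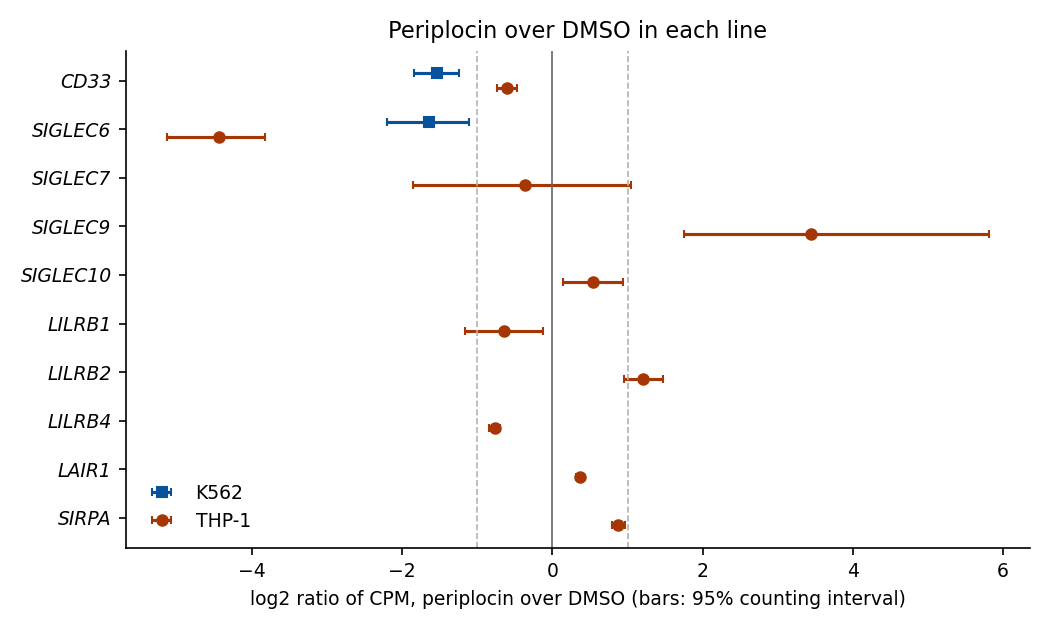
Log2 ratio of CPM in periplocin over DMSO for each gene, squares for K562 and circles for THP-1, with exact 95% counting intervals as bars and dashed lines at 2-fold. SIGLEC6 lies at -4.44 and SIGLEC9 at 3.45 in THP-1, the others there between -0.77 and 1.20, and only CD33 and SIGLEC6 could be read in K562.

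Beside these THP-1 values, the mature monocyte marker CD14 was called higher in THP-1 periplocin, from 8 to 382 counts. ITGAX had 1121 and 1478 counts and MSR1 had 16 and 10, and neither was called. CD163, MRC1 and FCGR3A had 4 counts or fewer in both THP-1 libraries. In K562, CD14 and MRC1 were called higher, from 1 to 69 and from 1 to 14 counts. CD14 passed the 10-count limit only through periplocin in both lines, as did MRC1 in K562. The 10 monocytic and THP-1 markers were mixed in THP-1, where 9.19% of all genes were called higher and 11.7% lower. CD68, CTSS and CYBB were called higher, and MPO and CST7 lower (CST7 read only through DMSO). The median log2 ratio of the 10 was -0.18, and their sum was 2509 CPM in DMSO and 2966 in periplocin. The part of these markers in the receptor values was not tested.

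Between the control libraries 9 of the 10 genes could be compared, and all 9 were higher in THP-1 DMSO, where 24.6% of 13974 genes were called higher. For 7 of them this direction was fixed, since they had 7 counts or fewer in K562 DMSO and were read only through THP-1, and nothing is drawn from the count. CD33 was 3.23-fold and SIGLEC6 4.02-fold higher. Against K562 at 0 counts, set to 3, SIGLEC7 was 3.46-fold, LILRB1 26.2-fold, SIGLEC10 27.9-fold and LILRB2 53.6-fold higher. The lower ends of their counting intervals were 2.40-fold, 20.9-fold, 22.3-fold and 43.1-fold in the same order. LILRB4, LAIR1 and SIRPA had 1 to 7 counts in K562 DMSO, and their log2 ratios were 10.19 (8.64 to 12.47), 9.41 (8.37 to 10.73) and 10.75 (8.27 to 16.05). Scaling by total counts moved the median of all genes in this comparison by -0.12 on the log2 scale.

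To compare the genes with each other, CPM was divided by the length of annotated exons in kb. In THP-1 DMSO the order was LAIR1 at 34.6, LILRB4 at 32.5, SIRPA at 19.9, CD33 at 11.5, SIGLEC6 at 11.0, LILRB2 at 2.47, SIGLEC10 at 1.34, LILRB1 at 0.920, SIGLEC7 at 0.297 and SIGLEC9 at 0.0598 CPM per kb. CD33 and SIGLEC6, SIGLEC10 and LILRB1, and SIGLEC7 and SIGLEC9 had overlapping counting intervals, while the other neighbours did not overlap. In THP-1 periplocin it was LAIR1 at 44.5, SIRPA at 36.5, LILRB4 at 19.0, CD33 at 7.52, LILRB2 at 5.69 and SIGLEC10 at 1.95, all apart from their neighbours. SIGLEC9, LILRB1, SIGLEC6 and SIGLEC7 followed between 0.652 and 0.231 CPM per kb with overlapping intervals between neighbours. SIGLEC6 thus stood beside CD33 in DMSO and among the lowest in periplocin. In K562, CD33 at 3.55 and SIGLEC6 at 2.73 overlapped in DMSO, as did 1.22 and 0.872 in periplocin.

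**Figure D3:**
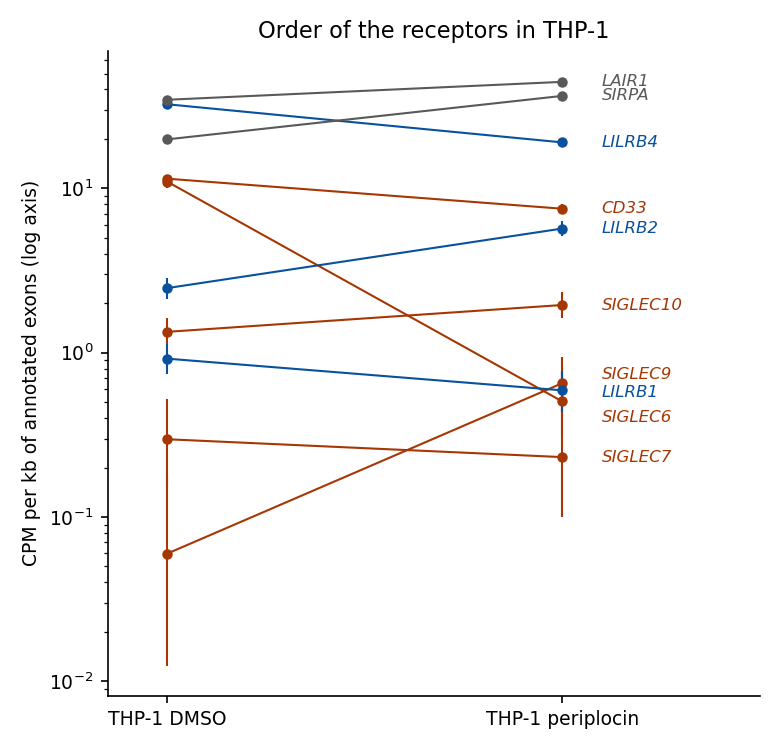
CPM per kb of annotated exons of the 10 genes in the THP-1 DMSO and THP-1 periplocin libraries on a log axis, with 95% counting intervals as bars. The line of SIGLEC6 drops from 11.0 to 0.505, that of SIGLEC9 climbs from 0.0598 to 0.652, and those of SIRPA and LILRB4 cross.

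Counts of the 10 genes summed to 494 with DMSO and 172 with periplocin in K562, and to 13869 and 12600 in THP-1. CD33 and SIGLEC6 made up 97.6% and 96.5% of them in K562, and 13.8% and 6.21% in THP-1. LAIR1, LILRB4 and SIRPA made up 83.4% in THP-1 DMSO and 89.2% in periplocin. On the CPM scale the sum was 28.9 with DMSO and 9.90 with periplocin for K562, and 702 and 745 for THP-1, so the K562 total was lower and the THP-1 total slightly higher. Within THP-1 the 5 Siglecs summed to 102 and 55.5 CPM and the 3 LILRB genes to 220 and 145 CPM.

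From 11023 genes whose mean CPM was 5 or more, those with patterns over the 4 libraries nearest to a member were found by Euclidean distance of centred log2(CPM + 0.5). With 4 libraries from 2 lines such likeness is a description. Nearest to CD33 was IDH2 (distance 0.159), a mitochondrial isocitrate dehydrogenase, with 1438 and 446 counts in K562 and 4881 and 2827 in THP-1, DMSO first, followed by NRROS (0.211) and POLM (0.227). Nearest to SIGLEC6 was TERT (0.784), the telomerase reverse transcriptase, with 79 and 24 counts in K562 and 530 and 5 in THP-1, then PPDPF (0.808) and ASL (0.894). SIGLEC6 had more distant nearest genes than any of the other 5 members with a mean above that level.

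LILRB2 was nearest to CCDC149 (0.132), DDX60 (0.141) and CD300A (0.185), the last an inhibitory receptor itself with 0 counts in K562 and 180 and 421 in THP-1. LILRB4 was nearest to WDFY4 (0.111), CLSTN2 (0.221) and SORL1 (0.322). For LAIR1 these were MYO1G (0.275), PARVG (0.323) and ADGRL2 (0.518), and for SIRPA they were ITGAL (0.200), DOCK10 (0.271) and APBB1IP (0.296), of which ITGAL encodes an integrin chain of leukocytes.

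The remaining Siglecs were followed as a list, of which 9 of 10 genes were in the table. In THP-1 6 could be read, 2 were called higher and 2 lower, with a median log2 ratio of 0.63, beside 9.19% higher, 11.7% lower and -0.04 for all genes. SIGLEC1, the macrophage Siglec sialoadhesin, had 87 counts in DMSO and 549 in periplocin (2.88), and SIGLEC11 had 11 and 44 (2.22). SIGLEC12, which has lost sialic acid binding in humans, had 179 and 62 (-1.31), and SIGLEC15 had 27 and 5 (-2.21), which could be called only lower. The Siglecs of THP-1 therefore went both ways, as the members did. In K562 3 could be read, 1 called higher and 1 lower, beside 10.1% and 12.3% of all genes. CD22, the inhibitory Siglec of B cells, was higher, from 66 to 151 counts (1.17). SIGLEC8, known from eosinophils and mast cells, was lower, from 35 to 6 (-2.57), the only direction open to it.

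Of the other LILR, LAIR and SIRP genes, 12 of 13 were in the table and 8 could be read in THP-1, with a median of 0.16. Of these, 3 were called higher and 0 lower, beside 9.19% and 11.7% of all genes. The 3 were LILRB3 (5 and 89 counts), LILRA6 (2 and 42) and SIRPD (5 and 20), which all passed the 10-count limit only through periplocin and could be called only higher. LILRB3 and LILRA6 are near copies whose expected counts in THP-1 periplocin, 88.62 and 42.38, summed to the whole number 131. SIRPB1 had 1256 and 1320 counts, a log2 ratio of 0.30 beside the 0.88 of SIRPA. In K562 only LILRA2, an activating LILR, could be read, and with 11 and 1 counts it could be called only lower, as it was.

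**Figure D4:**
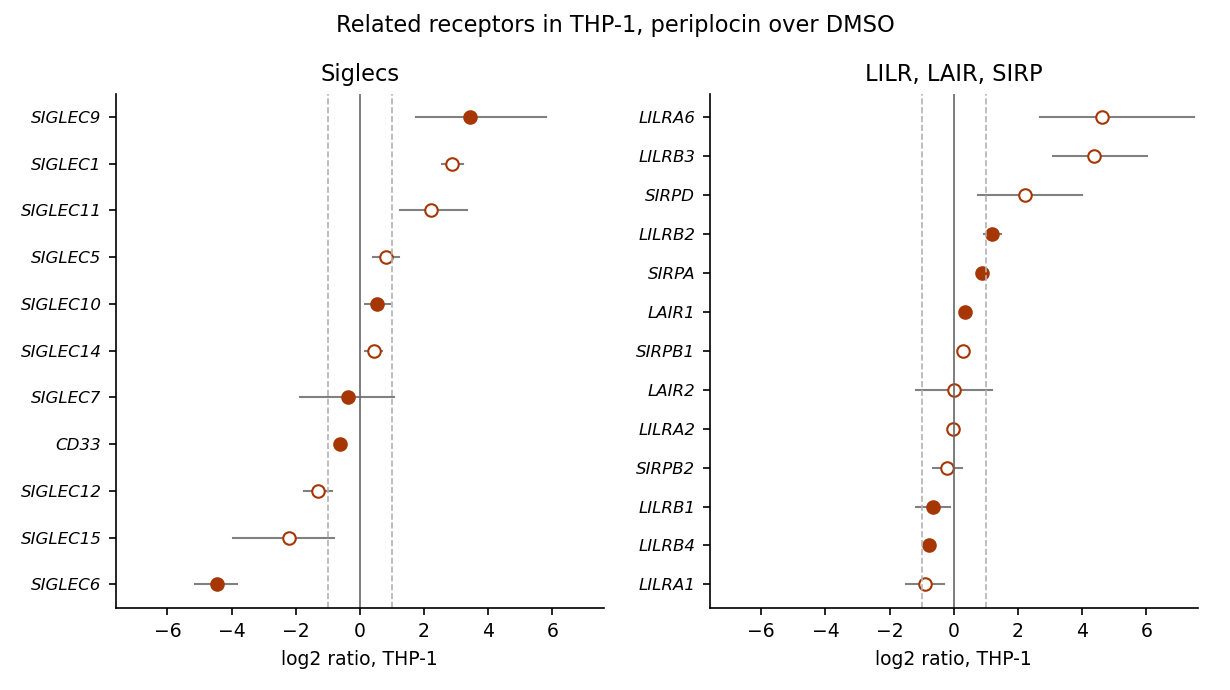
Log2 ratio of CPM in periplocin over DMSO in THP-1 for Siglecs (left) and for LILR, LAIR and SIRP genes (right) that could be read, filled circles for the 10 genes and open circles for their relatives, with 95% counting intervals as lines and dashed lines at 2-fold. Siglecs range from -4.44 for SIGLEC6 to 3.45 for SIGLEC9, and among the other families LILRA6 and LILRB3 lie highest at 4.62 and 4.38.

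Other inhibitory receptors of myeloid cells numbered 14. In THP-1 10 could be read, 5 were called higher and 0 lower, beside 9.19% and 11.7% of all genes, with a median log2 ratio of 1.07. CD300A, with 180 and 421 counts, had a ratio of 1.45, and the others were PILRA, FCGR2B, HAVCR2 and VSIG4, of which FCGR2B and VSIG4 were read only through periplocin. In K562 7 could be read, with 3 called higher (PILRA, CLEC4A and FCGR2B) and 3 lower (PECAM1, MILR1 and VSIR), beside 10.1% and 12.3% of all genes, and CLEC4A and FCGR2B were read only through periplocin. VSIR, the checkpoint receptor VISTA, had 1738 counts in K562 DMSO and 196 in periplocin (-3.17), and 2614 and 3905 in THP-1 (0.80, not called). MILR1, an inhibitory receptor of mast cells, had 218 counts in K562 DMSO but 27 in K562 periplocin (-3.04), and in THP-1 it had 771 and 1279 (0.95, not called). Like CD33 and SIGLEC6, both were lower in K562 periplocin, but unlike them both were above their DMSO level in THP-1, without a test between the lines.

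Activating counterparts and adaptors were 10 genes, of which 9 could be read in THP-1, with a median of 0.43. Of these, 3 were called higher (TYROBP, TREM1 and CLEC5A) and 0 lower, beside 9.19% and 11.7% of all genes. TREM1 (4 and 20 counts) and CLEC5A (1 and 80) were read only through periplocin and could be called only higher. TYROBP, the adaptor through which activating Siglecs and SIRPB1 signal, had 1348 and 2458 counts in THP-1 (1.09) and 3 and 10 in K562. In K562 4 could be read and 2 were called lower, FCER1G and OSCAR, beside 12.3% of all genes. Both had 11 counts in DMSO and at most 1 in periplocin, so that only a lower call was possible.

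Among 15 kinases, phosphatases and adaptors that act on ITIMs, all could be read in THP-1, with a median of 0.35. There 2 were called higher and 0 lower, beside 9.19% and 11.7% of all genes. PTPN6 had 122 and 56 counts in K562 (-1.15, called lower) and 4951 and 4769 in THP-1 (0.17). PTPN11 was not called, at -0.32 in K562 and -0.19 in THP-1, nor was INPP5D, the inositol phosphatase SHIP-1, with 19 and 29 counts in K562 and 6580 and 7343 in THP-1 (0.38). SRC, the kinase that names its family, had 168 and 61 counts in K562 (-1.49) and 192 and 441 in THP-1 (1.42). SOCS3, a suppressor of cytokine signalling, had 63 and 265 in THP-1 (2.30). In K562 12 of the 15 could be read, with a median of -0.54. SRC and PTPN6 were the 2 called lower, with 0 higher, beside 12.3% lower and 10.1% higher of all genes.

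Protein ligands of these receptors were listed as 20 genes. In K562 11 could be read, 6 were called higher and 0 lower, with a median of 1.09, beside 10.1% higher, 12.3% lower and -0.01 for all genes. In THP-1 14 could be read, 4 were higher and 2 lower, with a median of 0.77, beside 9.19% and 11.7% of all genes called. CD47, the ligand of SIRPA, had 2395 and 1854 counts in K562 (-0.40) and 1331 and 1956 in THP-1 (0.78), and was not called in either. B2M, the light chain of the HLA class I molecules that LILRB1 and LILRB2 bind, had 7157 and 11886 counts in K562 (0.71) and 14710 and 31282 in THP-1 (1.31, called higher). HLA-C was called higher in K562, from 56 to 121 counts (1.09).

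APOE, a ligand of LILRB4, was called higher in both lines, with 720 and 1755 counts in K562 (1.26) and 46 and 134 in THP-1 (1.77). CD24 and CD52, ligands of the SIGLEC10 product, differed from each other. CD24 had 43 and 565 counts in K562 (3.69) but 27 and 3 in THP-1 (-2.95, interval -5.31 to -1.25), where it could be called only lower, whereas CD52 had 46 and 115 in K562 (1.30) but also more in THP-1 periplocin, with 15 and 174 there (3.76). COL4A1, a collagen chain, had 550 and 163 counts in THP-1 (-1.53) and 0 in K562. HLA-B and COL1A1 in K562, and COL1A1 in THP-1, made up the other called ligands, each with 23 counts or fewer and read only through periplocin.

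Sialic acid is the ligand of the Siglecs, and 26 genes for its synthesis, transfer and removal were listed. In THP-1 22 could be read, 6 were called higher and 3 lower, beside 9.19% and 11.7% of all genes, with a median of 0.21. Among the 6, ST8SIA1 with 0 and 10 counts, was read only through periplocin. Higher were ST8SIA4, which builds polysialic acid, from 216 to 771 counts (2.06), and ST3GAL6, an alpha-2,3-sialyltransferase, from 209 to 647 (1.85). ST6GAL1, which makes alpha-2,6-linked sialic acid, was lower, from 824 to 248 (-1.51), as were ST3GAL4 and ST8SIA6. The sialyltransferases therefore went both ways in THP-1. In K562 19 could be read, 1 was called higher and 1 lower, beside 10.1% and 12.3% of all genes, with a median of 0.09. These were the lysosomal sialidase NEU1, from 2036 to 5165 (1.32), and QPCTL, from 287 to 130 (-1.17), the enzyme that modifies the end of CD47 for binding to SIRPA. Ratios in THP-1 had the same signs, with 862 and 1792 counts for NEU1 (1.28, called higher) and 337 and 145 for QPCTL (-0.99, not called).

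**Figure D5:**
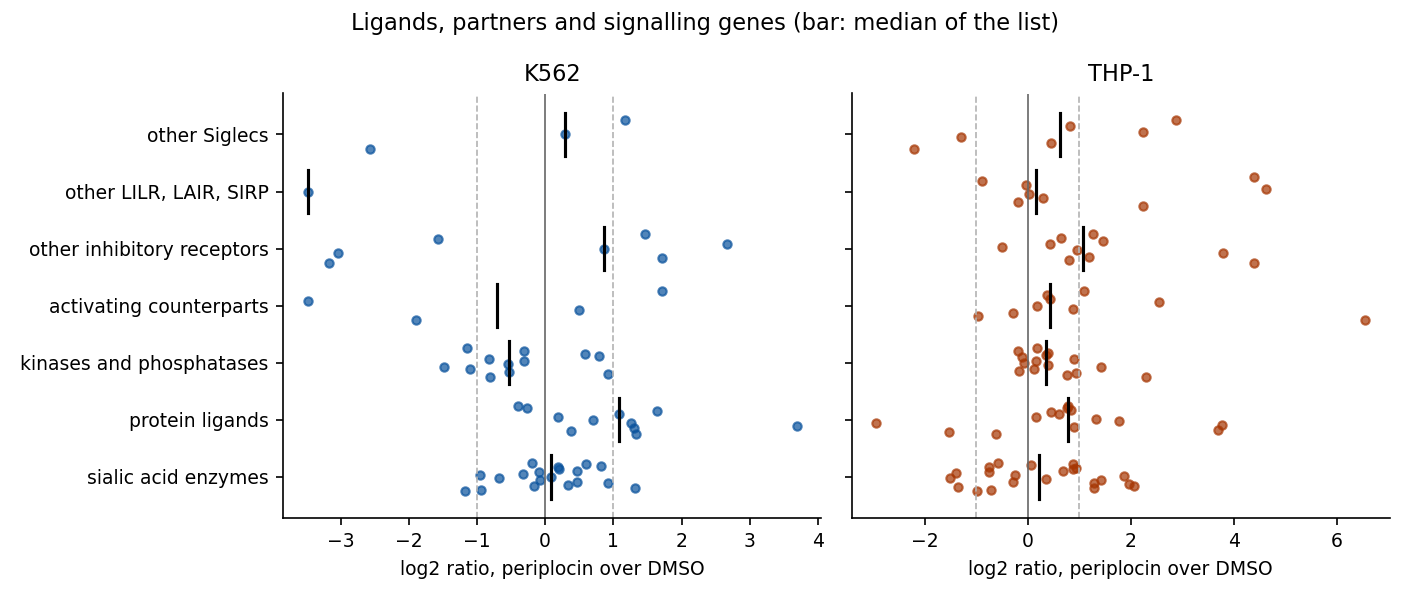
Log2 ratio of CPM in periplocin over DMSO for each gene of the 7 lists that could be read, in K562 (left) and THP-1 (right), with 1 point per gene, black bars for list medians and dashed lines at 2-fold. In THP-1 the list medians lie between 0.16 and 1.07, and points fall on both sides of 0 in all 7 lists. In K562 single genes such as CD24 at 3.69 and VSIR at -3.17 lie far from their medians.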

How the data were processed

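Poly-A RNA of K562 and THP-1 cells was sequenced as paired-end reads, 1 library per condition. The authors deposited 1 table of expected counts per gene, which need not be whole (87.4% to 88.3% are) and are not normalized. The submitters' processing notes name hg38, HISAT2 and StringTie 1.3.1. The counting program and its annotation are not given in the sources used here, and the labels and methods name different sequencing platforms. Symbols were found for 20310 of 20348 genes, 0 columns were left unused, and positions and exon lengths came from GENCODE 29 (GRCh38).

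Counts were rounded and scaled by TMM factors over the 4 libraries (edgeR 4.0.16, R 4.3.3). Ratios carry exact 95% Clopper-Pearson intervals on the counts, which cover counting error only, since the reads have no molecular identifiers. No p-value was computed. A count of 0 was set to 3, and counts of 1 to 3 were used as they are, although the design first took 3 or fewer as a bound. The call was run on counts simulated with counting error only. That run held no spread between cultures and planted changes only in genes with larger counts, so it does not bear on such spread or on small counts. The genes and lists were chosen with earlier results of these data known.

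Named were the 10 members, up to 3 called genes per list and line with the largest log2 ratio at a mean of at least 5 CPM, CD47, B2M, PTPN6, PTPN11, INPP5D and TYROBP, and the 3 nearest genes of members with at least 5 CPM. Other genes were named after their values were seen, to account for a small count or a related copy. Promoter windows came from RefSeq (GRCh38.p14), which held 9 of the 10 members. Alternatives were TMM within each line, total counts, DESeq2 1.42.0 size factors, no filter, a filter at 1 CPM, assumed dispersions of 0.04 and 0.16, a 4-fold line and unrounded counts. Python 3.11.15 with scipy 1.17.1 was used for intervals. Proteins were not analysed here. A marker of the mature monocyte list is not reported here.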

Additional observations from a re-analysis of the deposited data

Results flagged for a closer look

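A pair of genes from the signalling and ligand lists was called in opposite directions in the 2 lines. SRC had a log2 ratio of periplocin over DMSO of -1.49 in K562 and 1.42 in THP-1. CD24, a ligand of the SIGLEC10 product, had a log2 ratio of 3.69 in K562 and -2.95 in THP-1, the latter from 27 and 3 counts. With 1 library per condition neither difference between lines was tested. Of the 10 receptors only CD33 and SIGLEC6 were read in both lines. SIGLEC6 was called lower in both, and CD33 was called lower in K562 and not called in THP-1. The other receptors were not read in K562, so no opposite call was open to them and nothing is drawn from its absence.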

How the results depend on the processing

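Of the recomputed counts of called members, 31 were within 1.5 times the reported count and 5 were not. The 31 include the members called higher in K562, which stayed at 0 under every alternative. None of 83 recomputed single-gene ratios changed direction, but they were recomputed only with other scalings and with unrounded counts. Such settings shift a ratio too little to turn these signs, so nothing is drawn from this. SIGLEC6 was called lower in THP-1 under every alternative. The 2 members lower in K562 became 0 under an assumed dispersion of 0.16 and 0 with a 4-fold line. The 2 members higher in THP-1 became 1 with a filter at a mean of 1 CPM (LILRB2), 1 at a dispersion of 0.16 (SIGLEC9) and 1 with a 4-fold line (SIGLEC9). Over all genes, calls higher and lower were 1286 and 1562 in K562 but 492 and 623 at a dispersion of 0.16 and 394 and 468 with a 4-fold line, and 1228 and 1568 in THP-1 but 533 and 533, and 417 and 392. With no filter LAIR1 joined the genes called lower in K562, which made 3. Across scalings the CD33 log2 ratio stayed between -1.55 and -1.53 in K562 and between -0.61 and -0.57 in THP-1. No replicate could be left out with 1 library per condition, and the assumed dispersions stand in for a spread that these data cannot give. No paired analysis was possible because each group holds a single library and the result comes from no test. At these depths a member with under 10 counts, as 8 were in K562, could not be read.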

Other observations

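Among receptors of the fixed lists with a low level in THP-1 DMSO, 3 are given here that had more counts in THP-1 periplocin. They were singled out after their values were seen and were read only through periplocin, so their direction was fixed. Others as low in DMSO were not higher beyond counting error, such as CD72 with 6 and 7 counts, CEACAM1 with 4 and 0, LILRA4 with 5 and 3 and CD300E with 1 and 1. CLEC5A, an activating receptor that pairs with TYROBP, had 1 count in DMSO and 80 in periplocin (log2 ratio 6.55, interval 4.03 to 11.87). VSIG4, a complement receptor of macrophages, had 5 and 89 (4.38, interval 3.10 to 6.04), and FCGR2B, the inhibitory Fc receptor, had 9 and 106 (3.78, interval 2.80 to 4.95). In K562 the same genes had 0 and 0, 2 and 0, and 6 and 20 counts. PECAM1, an ITIM-bearing adhesion molecule, had 8033 and 10719 counts in THP-1 (0.64, not called) and 64 and 22 in K562 (-1.57, called lower).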
